A study of Homo sapiens with 72 samples.

Results

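Activator protein 1 (AP-1) is a transcription factor made of 2 basic leucine zipper proteins, and the 8 genes described here, FOS, FOSB, FOSL1, FOSL2, JUN, JUNB, JUND and ATF3, encode its FOS, JUN and ATF3 subunits. They were taken by gene symbol from 11 deposited tables of comparisons, each of which lists 61541 genes, and each symbol named exactly 1 of them. All 8 had an adjusted p-value in all 11 tables. The family was chosen by a measured value, the deposited log2 fold changes of knockout cells with arsenite over untreated knockout cells. That response is therefore given as a description, with no test, and nothing is supported with it.

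The study concerns G3BP1, an RNA-binding protein that, with its paralog G3BP2, is needed to assemble stress granules, cytoplasmic condensates of untranslated mRNA. RNA-seq was made in U2OS, a human osteosarcoma line, in 2 experiments with 2 libraries per group. In the experiment with arsenite, all 6 groups carried the knockout of G3BP1 and G3BP2: untransfected knockout cells, and knockout cells transfected 24 h earlier, by Lipofectamine, with wild-type G3BP1 or with G3BP1 lacking its NTF2 domain, the part through which the protein dimerizes. Each was left untreated or received 200 uM sodium arsenite, an oxidative stressor, for 2 h. The unstressed experiment compared wild-type U2OS cells, untransfected knockout cells and knockout cells transfected 24 h earlier with G3BP1. RNA immunoprecipitation (RIP) added 3 immunoprecipitated (IP) and 3 input libraries. They came from embryonic kidney cells of the Flp-In T-REx 293 line, which carried FLAG-G3BP1 under a promoter switched on by tetracycline (1 ug/mL, 24 h). No wild-type cells with arsenite and no mock-transfected cells enter these comparisons, so that a return of G3BP1 and the transfection itself cannot be told apart. Whether the knockout line was 1 clone, and whether the libraries of a group came from separate cultures, is not stated in the labels, so p-values measure the spread between these libraries, which may be technical.

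FOS proteins do not pair with themselves and act as dimers with a JUN protein, whereas JUN proteins can also pair with each other or with ATF factors. FOS, FOSB, JUN, JUNB and ATF3 are immediate-early or early stress genes, switched on within minutes to hours through the MAP kinases JNK, p38 and ERK, and their short-lived mRNAs are cleared through AU-rich elements. FOSL1, FOSL2 and JUND make up more of the standing AP-1 activity of many mesenchymal and tumour cells, and ATF3 is a target of the integrated stress response, which arsenite sets off.

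The tables hold no values per library, but each deposited base mean is a sum of whole reads divided by size factors. The whole reads of every gene in the 18 U2OS libraries could be solved from the tables that share libraries, and values per library below are these reads divided by the size factors of the experiment (normalised reads). Gene reads per library, in units of 1000000, ran from 10.8 to 27.8 in the arsenite experiment and from 38.6 to 52.5 in the unstressed one. In these bulk libraries fewer cells of a kind and less RNA per cell cannot be told apart. In the arsenite experiment G3BP1 transcripts were still counted in the knockout, at 3168 to 3884 normalised reads over its 4 libraries, against 591137 to 977487 over the 8 rescue libraries. Of 6 osteoblast and mesenchymal markers, VIM (12399 to 23300 normalised reads), SPARC (5978 to 22949) and COL1A1 (3211 to 10734) were high in all 12 of these libraries, ALPL (126 to 395) and RUNX2 (70.9 to 265) were lower, and COL1A2 lay at 4.20 to 14.5. Among epithelial markers, the keratins KRT8 (4530 to 5922) and KRT18 (1483 to 4238) were high. EPCAM lay at 42.4 to 125 and the cadherin CDH1 at 4.20 to 16.8. Among markers of embryonic kidney lines, LIN28B lay at 406 to 792 and PAX2 and PAX8 at no more than 30.2. The blood markers PTPRC, CD3E, LYZ and HBB lay at no more than 8.95.

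Promoter sequence was at hand in RefSeq (build GRCh38.p14) for 7 of the 8 genes, in 8 windows of 300 bases running from 250 before to 50 after a start site. Shown are 5 of the members that hold the letters of a cyclic AMP response element, a close variant or its core. These letters were picked because among the motifs searched only they occurred in several members. FOSL2, which also holds the core, is not shown. The sequences are the 210 bases before the start, 5′ to 3′ on the gene's own strand, at chr14:75278618-75278827 on the plus strand for FOS, chr19:45467786-45467995 on the plus strand for FOSB, chr1:58784048-58784257 on the minus strand for JUN, chr19:18281623-18281832 on the minus strand for JUND and chr1:212565197-212565406 on the plus strand for ATF3. Capitals mark TGACNTCA, TGANTCA or TGACGT on either strand.
FOS: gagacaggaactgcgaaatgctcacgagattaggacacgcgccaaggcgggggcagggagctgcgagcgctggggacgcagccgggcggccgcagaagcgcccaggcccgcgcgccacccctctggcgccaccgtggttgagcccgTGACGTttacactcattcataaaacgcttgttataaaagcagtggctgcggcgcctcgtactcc
FOSB: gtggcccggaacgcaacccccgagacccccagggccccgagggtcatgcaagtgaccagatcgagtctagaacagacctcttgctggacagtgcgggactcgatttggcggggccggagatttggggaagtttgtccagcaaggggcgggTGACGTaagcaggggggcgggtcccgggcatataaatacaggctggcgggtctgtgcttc
JUN: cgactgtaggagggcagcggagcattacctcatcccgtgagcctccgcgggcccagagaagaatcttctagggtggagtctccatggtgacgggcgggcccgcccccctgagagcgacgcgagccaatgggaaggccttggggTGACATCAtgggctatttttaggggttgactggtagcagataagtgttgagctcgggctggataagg
JUND: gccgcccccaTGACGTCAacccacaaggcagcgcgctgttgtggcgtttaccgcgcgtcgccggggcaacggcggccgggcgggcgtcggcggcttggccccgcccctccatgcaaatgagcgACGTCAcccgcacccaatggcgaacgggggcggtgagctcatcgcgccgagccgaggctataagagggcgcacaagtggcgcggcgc
ATF3: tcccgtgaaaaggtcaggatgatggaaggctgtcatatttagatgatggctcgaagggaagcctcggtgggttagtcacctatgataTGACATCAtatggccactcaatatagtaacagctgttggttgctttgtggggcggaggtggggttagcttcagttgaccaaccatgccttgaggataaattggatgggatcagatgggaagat
TGACNTCA occurred in JUN at -67 to -60 (TGACATCA), in ATF3 at -123 to -116 (the same letters) and in JUND at -200 to -193 (TGACGTCA), counted from the start site. ATF3 had 2 of the 8 windows, and its other window held none of the motifs searched. TGACNTCA was present in 7.72% of all 35116 RefSeq windows of this length. TGACGT, which TGACNTCA holds where its middle base is G, occurred in FOS at -64 to -59, in FOSB at -60 to -55, in FOSL2 at -66 to -61 and in JUND, against 7.98% of all windows. The AP-1 element itself, TGANTCA, was found in 1 of the 7 genes, FOSL2, against 7.71% of windows, and the CArG box bound by serum response factor in 0 of 7 in these windows, against 1.29%. A match is a run of letters and not a mapped binding site.

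In knockout cells all 8 genes had more reads with arsenite, and in none of them did the 2 treated libraries overlap the 2 untreated ones. FOSB, whose protein is a close relative of FOS, went from 22.2 and 25.04 normalised reads to 7889 and 8934, a ratio of the means of 356. FOS, the prototype of the family, went from 71.9 and 83.9 to 6546 and 6575, a ratio of 84.3. The stress-induced repressor ATF3 went from 206 and 242 to 16003 and 16811 (ratio 73.3), and JUN, the main partner of FOS, from 788 and 821 to 19981 and 22889 (ratio 26.6). These 4 genes thus stood apart from the other members in the size of their ratio. FOSL1 (FRA-1) went from 292 and 298 to 2466 and 2476 (ratio 8.37), and JUNB, which often restrains JUN, from 575 and 672 to 2635 and 2951 (ratio 4.48). FOSL2 (FRA-2) went from 2579 and 2903 to 5017 and 5283 (ratio 1.88), and JUND from 2148 and 2432 to 3305 and 3420 (ratio 1.47), the 2 smallest ratios of the family. All 8 of 8 members were called higher in the authors' deposited table, at an adjusted p-value under 0.05, as were 8.56% of the 15497 genes tested, a count from which nothing is read here because this contrast led to the choice of genes. The log2 fold changes of the authors' deposited table are pulled toward 0 by a prior, which for FOSB gave 7.64 where the ratio of means gives 8.49.

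**Figure D1:**
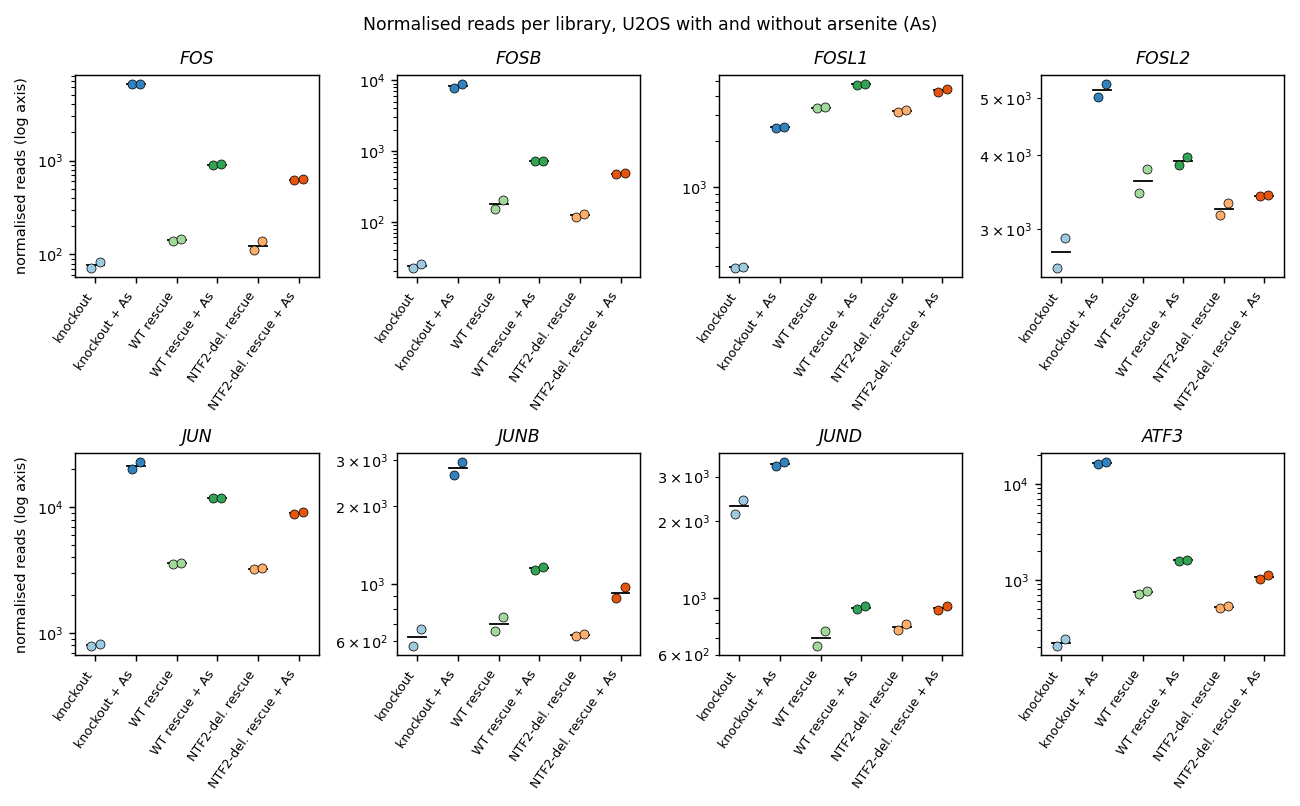
Normalised reads of the 8 genes in each library of the arsenite experiment (log axis, a separate scale per gene); points are libraries, 2 per group, and bars are group means. The arsenite-treated knockout libraries are highest for every gene except FOSL1, and the untreated knockout libraries are lowest for every gene except JUND; for JUNB they overlap the NTF2-deletion rescue.

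With wild-type G3BP1 put back, arsenite still raised 7 of the 8 genes. Their ratios were smaller than in the knockout, though for JUND only slightly (1.31 against 1.47 in the knockout). FOS went from 138 and 145 to 894 and 912 normalised reads. The ratio of means was 6.37, and the authors' deposited table gave a log2 fold change of 2.41 with an SE of 0.11 (adjusted p 1.49e-110 by DESeq2). FOSB went from 153 and 203 to 715 and 724, a ratio of 4.04 (1.80 on the log2 scale of the authors' deposited table, SE 0.11, adjusted p 1.13e-57). For FOSB the treated libraries were alike and the untreated ones were further apart. JUN went from 3551 and 3627 to 11822 and 11893, a ratio of 3.30 (log2 fold change 1.69, SE 0.04, and an adjusted p that the authors' deposited table lists as 0). ATF3 went from 712 and 777 to 1572 and 1634, a ratio of 2.15 (1.05 on the log2 scale of the authors' deposited table, SE 0.07, adjusted p 1.32e-53). None of these 4 genes had libraries that overlapped between treated and untreated cells. JUNB, at 656 and 746 untreated and 1133 and 1164 treated, rose by a ratio of 1.64, and FOSL1, at 3301 and 3364 untreated and 4689.8 and 4794 treated, by 1.42. JUND rose from 648 and 745 to 903 and 928, a ratio of 1.31 (adjusted p 5.78e-05 by DESeq2 in the authors' deposited table). FOSL2 lay at 3456 and 3793 untreated and at 3846 and 3973 treated, and at a log2 fold change of 0.09 (SE 0.05) it was not called in the authors' deposited table (adjusted p 0.176). Of all 13635 genes tested in this comparison 8.18% were called higher, against 7 of 8 members. The median log2 fold change of the members was 0.86 and that of all genes tested 0.01.

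With G3BP1 lacking the NTF2 domain, 6 of the 8 genes were called higher after arsenite in the authors' deposited table, where 2.43% of the 11578 genes tested were called higher. FOS went from 110.2 and 139 to 614 and 635 normalised reads, a ratio of 5.02. FOSB went from 118 and 129.6 to 468 and 490.3, a ratio of 3.87, and JUN from 3229 and 3272 to 8908 and 9133, a ratio of 2.78. The treated libraries of all 3 lay well above the untreated ones. The authors' deposited table gave log2 fold changes of 1.69 for FOS (SE 0.12, adjusted p 3.68e-40), 1.37 for FOSB (SE 0.13, adjusted p 4.94e-25) and 1.43 for JUN (SE 0.05, adjusted p 3.24e-212). The prior of this table was the narrowest of those compared, with a standard deviation of 0.28 on the log2 scale, and undoing it moved FOS to 2.33 and FOSB to 1.95 on that scale. ATF3 went from 512 and 543 to 1032 and 1123, a ratio of 2.04 (adjusted p 2.42e-18 in the authors' deposited table). JUNB, at 631 and 639 untreated and 882 and 971 treated, and FOSL1, at 3133 and 3232 untreated and 4245 and 4454 treated, were also called. JUND, at 751 and 792 untreated and 895 and 928 treated, was not called in the authors' deposited table (log2 fold change 0.21, SE 0.09, adjusted p 0.159). A limma fit to the recovered reads, chosen after seeing the data, did call JUND (log2 difference 0.24, SE 0.07, adjusted p 0.0188). FOSL2 was not called by either (log2 fold change 0.07 and adjusted p 0.617 in the authors' deposited table).

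**Figure D2:**
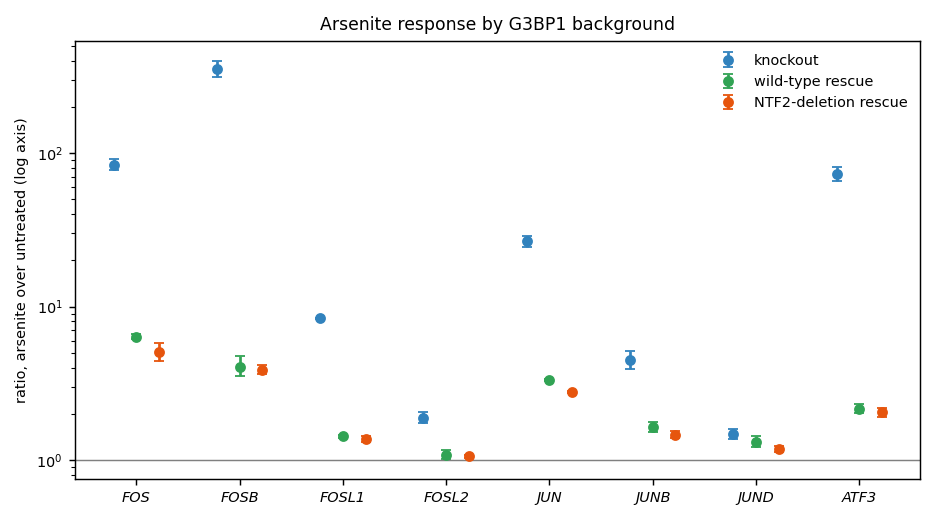
Ratio of mean normalised reads, arsenite-treated over untreated, for each gene in knockout, wild-type rescue and NTF2-deletion rescue cells (log axis). Bars span the smallest and the largest ratio that a treated library and an untreated library give. FOS, FOSB, JUN and ATF3 lie at 26.6 or above in the knockout and between 2.04 and 6.37 in both rescues, with no overlap of treated and untreated libraries.

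The difference of responses between backgrounds was taken as the difference of deposited log2 fold changes over the root of their summed squared standard errors. Wild-type rescue minus knockout ran from -5.84 for FOSB and -5.03 for ATF3 through -3.72 for FOS, -2.99 for JUN, -2.50 for FOSL1, -1.46 for JUNB and -0.82 for FOSL2 to -0.20 for JUND. At the threshold used elsewhere 7 of the 8 members, all but JUND, were on the side of a smaller response, and so were 2.68% of 15648 genes. NTF2-deletion rescue minus knockout gave -6.26 for FOSB, -5.19 for ATF3, -4.44 for FOS, -3.25 for JUN, -2.56 for FOSL1, -1.65 for JUNB and -0.84 for FOSL2. JUND was at -0.35. There the count was again 7, beside 3.08% of 15442 genes. It was 8, JUND included, with base means of at least 100, after centring and in limma. One side of both differences is the knockout response by which the genes were chosen, so these values and counts describe the members, are no test of them and support nothing. The levels reached can be set side by side as well. With arsenite, the knockout mean exceeded the wild-type rescue mean by a factor of 7.26 for FOS, 11.7 for FOSB and 10.2 for ATF3. This factor was 1.81 for JUN, 2.43 for JUNB, 1.32 for FOSL2 and 3.67 for JUND, whereas FOSL1 was higher in the rescue by a factor of 1.92. For JUND the untreated knockout mean already exceeded that of untreated wild-type rescue by a factor of 3.29.

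Whether the NTF2 domain changed the response was asked by comparing both rescues. Arsenite-treated cells with wild-type G3BP1 had the higher mean for all 8 genes, although the libraries of JUND overlapped. ATF3 had 1572 and 1634 normalised reads with wild-type G3BP1 and 1032 and 1123 with the NTF2-deletion form, and JUN 11822 and 11893 against 8908 and 9133. Neither gene's libraries overlapped between the rescues. The test on deposited fold changes, whose standard error also holds the spread of the untreated knockout libraries that both tables share, called JUN alone (difference 0.42, SE 0.09, adjusted p 0.00615), with 0.0483% of 16553 genes called higher. The limma fit, chosen after seeing the data, contrasts the libraries directly and called 5 members higher: ATF3 (log2 difference 0.57, SE 0.07, adjusted p 1.63e-05), JUN (0.39, SE 0.05, adjusted p 2.49e-05), FOS (0.53, SE 0.10, adjusted p 0.00393), FOSB (0.59, SE 0.11, adjusted p 0.00517) and JUNB (0.31, SE 0.08, adjusted p 0.0459). It called 0.781% of 16654 genes higher. FOSL1 (0.12, 95% interval 0.02 to 0.23), FOSL2 (0.20, 95% interval 0.08 to 0.31) and JUND (0.01, 95% interval -0.14 to 0.15) were not called. ATF3 and JUN stayed called whichever of the 4 arsenite-treated rescue libraries was left out. FOS, FOSB and JUNB were not called without any one of these 4 libraries, with adjusted p-values by limma of 0.0686 to 0.106, 0.0639 to 0.165 and 0.109 to 0.407.

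Untreated, ATF3 lay at 712 and 777 normalised reads with wild-type G3BP1 and at 512 and 543 with the deletion form, and FOSB at 153 and 203 against 118 and 129.6. The test on deposited fold changes called 0 of 8 members between the untreated rescues (1 at an unadjusted p-value under 0.05, ATF3) and 0.0185% of 16210 genes. In the limma fit ATF3 (log2 difference 0.50, SE 0.07, adjusted p 0.000353) and FOSB (0.51, SE 0.11, adjusted p 0.0196) were higher with wild-type G3BP1, beside 0.618% of 16654 genes. Leaving out single libraries kept ATF3 called in 4 of 4 cases and FOSB in 1 of 4. The arsenite response itself, treated over untreated, differed between the rescues for FOS (0.72, SE 0.16) and JUN (0.26, SE 0.06) by the test on deposited fold changes, both with an adjusted p of 0.00575 and beside 0.101% of 15865 genes called higher. Once the shrinkage was undone FOS was at 0.33 and JUN at 0.23 (adjusted p 0.0561), and neither was called. In limma 0 of 8 were called, beside 0.018% of 16654 genes, with 2 at an unadjusted p-value under 0.05, FOS at 0.34 (95% interval 0.05 to 0.63, adjusted p 0.731; 0.17 or 0.50 when either untreated NTF2-deletion rescue library was left out) and JUN at 0.25 (95% interval 0.10 to 0.40, adjusted p 0.428). For ATF3 the interval of the difference in response was -0.13 to 0.29. Transgene reads moved with this comparison: G3BP1 stood at 784731 and 803026 normalised reads in treated wild-type rescue and at 955601 and 977487 in treated NTF2-deletion rescue, and their part in the result was not tested.

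**Figure D3:**
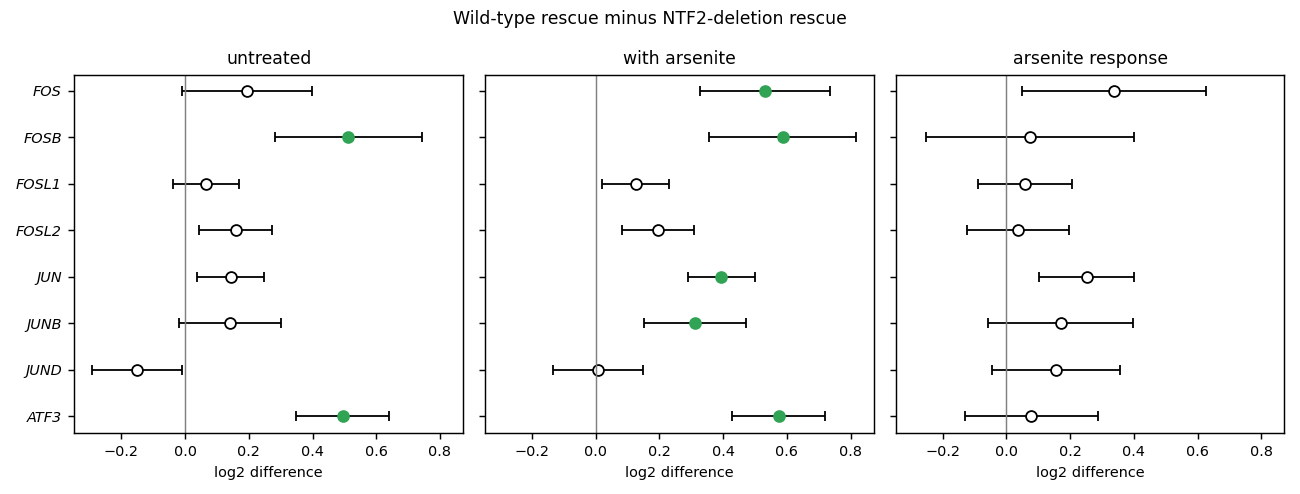
Log2 difference of normalised reads, wild-type rescue minus NTF2-deletion rescue, in untreated cells, in arsenite-treated cells and for the arsenite response (treated minus untreated), from limma on recovered reads. Bars are 95% intervals; filled points passed at an adjusted p-value under 0.05. Filled points are FOSB and ATF3 untreated and FOS, FOSB, JUN, JUNB and ATF3 with arsenite, and 0 of 8 for the response.

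Without arsenite the rescues already differed from the untransfected knockout. These comparisons share the untreated knockout libraries with the one that led to the choice of genes. The members' values and counts set against these libraries, here and below, are therefore a description, no test of them, and support nothing. FOSL1, which is abundant in invasive tumour cells, was at 292 and 298 normalised reads in the knockout and at 3301 and 3364 in wild-type rescue, which the authors' deposited table gives as 3.49 on the log2 scale (SE 0.10, adjusted p 1.26e-272). JUN was at 788 and 821 in the knockout and at 3551 and 3627 in the rescue (2.17 on the log2 scale of the authors' deposited table, SE 0.08, adjusted p 9.10e-159). FOSB (2.68, SE 0.34), ATF3 (1.73, SE 0.16), FOS (0.83, SE 0.29) and FOSL2 (0.42, SE 0.08) were also called higher in that authors' deposited table. JUND moved the other way, from 2148 and 2432 in the knockout to 648 and 745, or -1.68 on the log2 scale of the authors' deposited table (SE 0.10, adjusted p 2.15e-58). JUNB, at 575 and 672 against 656 and 746, was not called in the authors' deposited table (0.19, SE 0.14, adjusted p 0.286). So 6 members were called higher, where 23.0% of 20738 genes were, and 1 lower, where 19.1% were. Genes with base means of at least 100 had a median log2 fold change of 0.18 in this table, and FOS was no longer called after centring on it (0.66, adjusted p 0.0563). Scaled to 1000000 gene reads per library, FOSL2 was at 0.18 and JUNB at -0.05 on the log2 scale.

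With the NTF2-deletion form, FOSL1 was at 3133 and 3232 normalised reads and JUN at 3229 and 3272, log2 fold changes over the knockout of 3.43 (SE 0.10) and 2.03 (SE 0.08) in the authors' deposited table. FOSB (2.16), ATF3 (1.24) and FOSL2 (0.27) were called higher and JUND (-1.54) lower in the same authors' deposited table. That made 5 members higher, beside 22.8% of 20911 genes, and 1 lower, beside 18.7%. FOS (0.65, adjusted p 0.0701) and JUNB (0.05, adjusted p 0.828) were not called in the authors' deposited table. The limma fit called FOS (0.66, SE 0.10, adjusted p 9.58e-07), whose libraries did not overlap those of the knockout. The median log2 fold change was 0.17 among genes whose base mean reached 100. FOSL2 lost its call after centring (0.10, adjusted p 0.326), and scaled to 1000000 gene reads per library its log2 ratio was -0.00067 and that of JUNB -0.22. Set against the untreated knockout, arsenite-treated wild-type rescue had 7 members called higher and JUND lower (25.1% of 22192 genes higher, 19.8% lower), and so had arsenite-treated NTF2-deletion rescue (23.3% of 21660 higher, 19.6% lower), where FOSL2 was again not called after centring (0.16, adjusted p 0.0651). From lowest to highest, the 6 groups ran for FOS, FOSB, JUN, JUNB and ATF3 in the same order: untreated knockout, NTF2-deletion rescue, wild-type rescue, then with arsenite NTF2-deletion rescue, wild-type rescue and knockout. The libraries of untreated NTF2-deletion rescue overlapped those of wild-type rescue for FOS and those of the knockout for JUNB.

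The unstressed experiment gave a second set of libraries without any of those above. FOSL1 was at 1336 and 1344 normalised reads in the knockout, at 2018 and 2079 in wild-type cells and at 3278 and 3483 in the G3BP1 rescue. Its knockout libraries were the lowest and its rescue libraries were above wild type. The log2 fold change of knockout over wild type was -0.61 (SE 0.09, adjusted p 8.88e-12) and of knockout over rescue -1.33 (SE 0.07, adjusted p 1.90e-70) in the authors' deposited tables. JUN, at 5167 and 5179 in the knockout, 7350 and 7827 in wild-type cells and 6870 and 7067 in the rescue, was lower in the knockout by -0.55 (SE 0.06) and -0.44 (SE 0.05) in the authors' deposited tables. FOSL2, at 13198 and 13245, 19895 and 20452, and 17213 and 18032, was lower by -0.61 (SE 0.05) and -0.43 (SE 0.04) in the authors' deposited tables. In all 3 genes the knockout libraries lay below both other groups.

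JUND was again highest in the knockout, at 6062 and 6531 normalised reads, against 2550.3 and 2831 in wild-type cells and 4126 and 4244 in the rescue. The authors' deposited tables gave 1.22 for knockout over wild type (SE 0.07, adjusted p 6.44e-64), 0.57 for knockout over rescue (SE 0.06, adjusted p 1.26e-21) and -0.65 for wild type over rescue (SE 0.07, adjusted p 2.57e-20). The rescue thus lay between the knockout and wild type. JUNB was at 1732 and 1795 in the knockout, 1127 and 1154 in wild-type cells and 1627 and 1668 in the rescue. It was higher in the knockout than in wild type by 0.62 (SE 0.09, adjusted p 1.11e-10) and did not pass against the rescue (0.09, SE 0.08, adjusted p 0.460) in the authors' deposited tables. The genes with the 3 highest ratios in arsenite-treated knockout cells were not called in this experiment in the authors' deposited tables: FOS lay between 152 and 205 over all 6 libraries, FOSB between 37.3 and 54.6, and ATF3 between 1014 and 1282, although limma called ATF3 lower in the knockout than in wild type (-0.21, SE 0.07, adjusted p 0.0163). Knockout over wild type thus had 2 members called higher, beside 18.4% of 25724 genes, and 3 lower, beside 19.4%. Knockout over rescue had 1 higher, beside 16.1% of 22945 genes, and 3 lower, beside 21.5%. Wild type over rescue had FOSL2 higher (0.17, SE 0.04, authors' deposited table), beside 15.2% of 22861 genes, and JUND, JUNB and FOSL1 lower, beside 20.4%. With 8 members, these shares lie in the range of the background and are no result about the family.

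**Figure D4:**
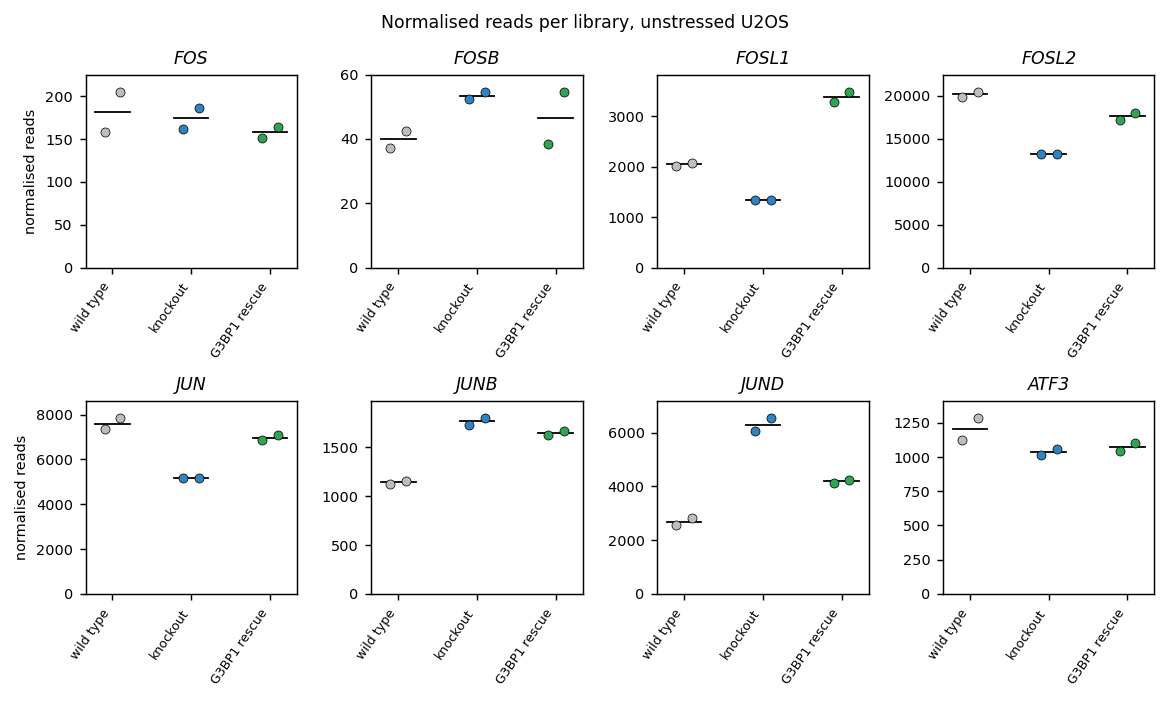
Normalised reads of the 8 genes in each library of the unstressed experiment (linear axes from 0, a separate scale per gene); points are libraries, 2 per group, and bars are group means. JUND is highest in the knockout (6062 and 6531), FOSL1, FOSL2 and JUN are lowest there, and the libraries of FOS overlap between groups.

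The 2 experiments can be set side by side for the knockout and wild-type G3BP1 rescue, which were made in each. The rescue mean exceeded the knockout mean by a factor of 11.3 for FOSL1 with the libraries of the arsenite experiment and of 2.52 with those of the unstressed one. For JUN these factors were 4.46 and 1.35, and for FOSL2 1.32 and 1.33. JUND was higher in the knockout by factors of 3.29 and 1.504. FOSB gave 7.55 and 0.868, and ATF3 3.33 and 1.03. G3BP1 itself was at 12603 and 12628 normalised reads in the knockout of the unstressed experiment, at 18087 and 19023 in its wild-type cells and at 20087 and 20375 in its rescue, a far smaller step than in the arsenite experiment. The experiments also differ in depth, and the part of either in these values was not tested.

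Which of these mRNAs were recovered with G3BP1 was asked by RIP in the 293-derived cells. Base means over all 6 libraries ran from 22.9 for FOS and 24.9 for FOSB to 1737 for JUN. In the authors' deposited table JUND (log2 fold change of IP over input 0.82, SE 0.13, adjusted p 1.90e-09) and ATF3 (0.98, SE 0.18, adjusted p 3.88e-07) were higher in IP. FOSL2 (-1.43, SE 0.20, adjusted p 4.34e-12), FOSB (-1.40, SE 0.44, adjusted p 0.00346), FOSL1 (-1.29, SE 0.24, adjusted p 4.11e-07) and JUN (-0.83, SE 0.15, adjusted p 9.28e-08) were lower in IP in the authors' deposited table. FOS (0.10, SE 0.49, adjusted p 0.875) and JUNB (-0.02, SE 0.15, adjusted p 0.916) were not called in it. The members went both ways, 2 of 8 higher beside 24.7% of 22856 genes and 4 of 8 lower beside 31.4%. With 8 members, these shares lie in the range of the background and are no result about the family. Whole reads had a single solution here for FOS and FOSB. FOSB had 10, 11 and 19 reads in the IP libraries and 29, 32 and 51 in the input libraries, which do not overlap. FOS had 15, 27 and 27 reads in IP and 16, 16 and 35 in input, which do. Their standard errors, 0.44 and 0.49 on the log2 scale, were the largest of the family in the authors' deposited table.

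**Figure D5:**
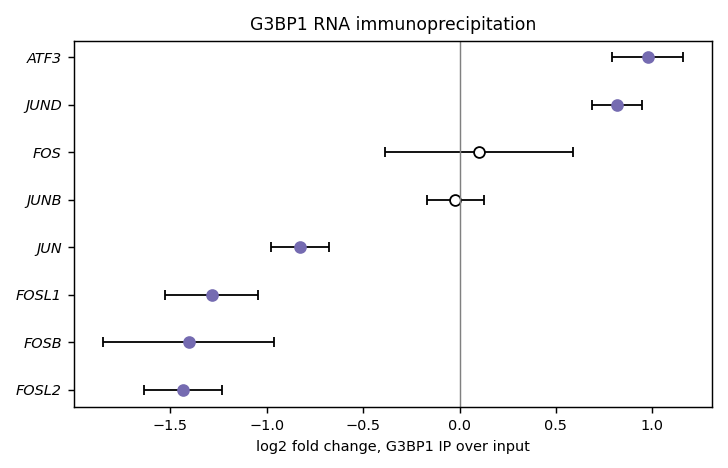
Log2 fold change of G3BP1 IP over input for the 8 genes in the authors' deposited table; bars are the authors' standard errors and filled points passed at an adjusted p-value under 0.05. ATF3 and JUND lie to the right of 0, FOSL2, FOSB, FOSL1 and JUN to the left, and FOS and JUNB near 0.

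Other basic leucine zipper proteins can pair with these subunits, and 14 of them formed a list. Arsenite raised 7 of the 11 tested in knockout cells, 5 of 12 in wild-type rescue and 4 of 10 in NTF2-deletion rescue, beside 8.56%, 8.18% and 2.43% of all genes tested, with medians of 0.61, 0.16 and 0.21 on the log2 scale. MAFF and DDIT3 had the highest fold changes of the list in all 3 backgrounds. By the authors' deposited tables these were, for MAFF, a small MAF protein, 3.63, 0.76 and 0.61, and for DDIT3, the CHOP factor of the integrated stress response, 3.24, 1.63 and 1.38. MAFF went from 191 and 218 to 2650 and 2837 normalised reads in the knockout and from 837 and 899.8 to 1492 and 1543 in wild-type rescue. Both genes were thus higher untreated in the rescue, as FOSB, JUN and ATF3 were. MAF went the other way without arsenite, at -2.17 in wild-type rescue over knockout (authors' deposited table).

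Of 18 MAP kinases, upstream kinases and serum response factors, 3 were raised and 1 lowered by arsenite in the knockout, 2 of 17 were raised with wild-type G3BP1, and 0 of 17 were called by DESeq2 with the NTF2-deletion form. With so few genes these counts lie near the shares of all genes called higher, 8.56%, 8.18% and 2.43%. SRF, which switches on FOS and other immediate-early genes, went from 903 and 1034 to 5558 and 5816 normalised reads in the knockout, from 1615 and 1702 to 1990.4 and 2068 in wild-type rescue and from 1700.3 and 1735 to 1834 and 1880.01 in NTF2-deletion rescue. Its log2 fold change was 2.53 in the knockout and 0.27 in wild-type rescue in the authors' deposited tables. The knockout libraries with arsenite were the highest of all 12. Of 8 regulators of AU-rich mRNAs, arsenite raised 1 in each of the 3 backgrounds, beside 8.56%, 8.18% and 2.43% of all genes. It lowered 2 in the knockout and 0 in either rescue, beside 10.9%, 12.2% and 6.14% of all genes. The 1 raised was ZFP36 (tristetraprolin), which destabilizes FOS mRNA, by 3.20, 1.22 and 0.69 in the authors' deposited tables. ZFP36 reached 816 and 820.4 normalised reads in the treated knockout, 292.6 and 293.0 in treated wild-type rescue and 243 and 256 in treated NTF2-deletion rescue.

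Genes known as AP-1 targets mostly fell or were not called after 2 h of arsenite. Of 17 on the list, 11 were tested in knockout cells, with 2 called higher and 4 lower in the authors' deposited table, 14 with wild-type G3BP1 (1 higher, 8 lower), and 13 with the NTF2-deletion form (1 higher, 5 lower). Of all genes tested 10.9%, 12.2% and 6.14% were called lower in these tables, and 8.56%, 8.18% and 2.43% higher. The gene raised in all 3 was HMOX1 (heme oxygenase 1, also a target of NRF2), at 3.37, 2.49 and 2.49 in the authors' deposited tables. TIMP1 was at -0.76 in the knockout and -0.65 in wild-type rescue, and PLAU (urokinase) was at -0.76 with wild-type G3BP1 and at -0.49 with the deletion form, in the authors' deposited tables. Without arsenite most of the same list, which was chosen with earlier results known, was called higher in the rescues than in the knockout. These comparisons use the untreated knockout libraries of the contrast that led to the choice of members. The counts are therefore a description and no test. Over the knockout, 14 of 16 were called higher with wild-type G3BP1 and 13 of 16 with the deletion form, beside 23.0% and 22.8% of all genes, with medians of 1.51 and 1.31 on the log2 scale against -0.03 and -0.02 over all genes tested. MMP3 (stromelysin 1) had 1.23 and 4.35 normalised reads in the untreated knockout and 8759 and 9137 in wild-type rescue, CD44 962 and 1009 against 10014 and 10062, and PLAU 173 and 191 against 2037 and 2075. In the unstressed experiment 11 of 16 were lower in the knockout than in wild-type cells and 9 of 16 lower than in the rescue, beside 19.4% and 21.5% of all genes. MMP3 there had 18.5 and 32.6 normalised reads in the knockout, 202 and 259 in wild-type cells and 2310.1 and 3072 in the rescue.

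Genes with arsenite and rescue profiles near those of 3 members were found by the root mean square difference of log2 fold changes over the 5 tables set against the untreated knockout, among 10477 genes with base means of at least 100 in each. The nearest to JUN was EGR1, another immediate-early gene, at a difference of 0.43, followed by DDIT3 (0.71) and MAFF (0.75). EGR1 went from 1560.3 and 1580 to 29145 and 31054 normalised reads in the knockout and from 4953 and 5002 to 17215 and 17598 in wild-type rescue. For FOS the nearest were HSPA1B (0.91), HSPA1A (0.92) and EGR1 (1.01), the first 2 being near-identical heat shock genes whose reads can be split between them. For ATF3 they were TAGLN (0.94), EGR1 (0.99) and DUSP1 (1.07). The 5 tables share the knockout libraries, so these distances are a description of these libraries.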

How the data were processed

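RNA-seq and RIP-seq libraries were compared in 24 of the 72 samples, in 11 groups; the other 48 were not analysed here. Per the submitters' processing notes, STAR 2.7.0f is listed for the unstressed and RIP experiments and DESeq2 2.11.40.6 for the comparisons; the genome build is not given in the sources used here. The authors deposited, per the file headers, a base mean, which is a signal of reads divided by size factors. The deposited log2 fold changes and their standard errors are those of the authors' DESeq2 fits, shrunk toward 0. The deposited Wald score divides each of these fold changes by its error, per the file headers. The deposited p-values, adjusted by the authors over the genes tested, were used as they stand at 0.05. Summary lines in each table, with 25.8 to 43.8% of the base mean sum, name no gene and were left out.

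Whole reads per library were solved from the base means of tables that share libraries (38909 of 38909 genes with reads over 12 libraries, and 38466 of 38466 over 6; relative tolerance 2e-13); simulation recovered 100% of genes in both. In the RIP table only FOS and FOSB had a single solution. Differences between deposited fold changes were given two-sided normal p-values, with Benjamini-Hochberg adjustment over genes with base means of at least 10 in both tables. In simulations that changed 200 genes by 1 on the log2 scale, 52.5% were recovered between the arsenite-treated rescues (16553 genes). The simulation drew errors independently for the 2 comparisons, whereas the real ones share the untreated knockout libraries, so 52.5% need not hold for these data. Its change of 1 also exceeded every member difference in that contrast, the largest being 0.63 for FOSB. limma 3.58.1 (R 4.3.3), on log2(normalised reads + 1) with a mean of at least 10, was added after seeing the data, as were the alternatives that use recovered reads. In simulation limma recovered 88% of 200 genes changed 2-fold in that contrast (16686 genes). A 2-fold change is 1 on the log2 scale and exceeded every member difference by limma there, the largest being 0.59 for FOSB. The 88% therefore need not hold for the members. Python 3.11.15, numpy 2.4.6, pandas 2.3.3 and scipy 1.17.1 were used.

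The members and all lists were chosen with earlier results of these data known. Named genes are all 8 members, of each list and comparison at most 3 called genes with the largest fold changes and a base mean of at least 100, and the 3 genes nearest to FOS, JUN and ATF3.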

Additional observations from a re-analysis of the deposited data

Results flagged for a closer look

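Differences in arsenite response between backgrounds that passed a threshold are listed here, 16 in all. In 14 of them one side is the knockout response that led to the choice of these genes, so that they are a description and no test of it. For wild-type rescue minus knockout the differences of deposited log2 fold changes were -3.72 for FOS, -5.84 for FOSB, -2.50 for FOSL1, -0.82 for FOSL2, -2.99 for JUN, -1.46 for JUNB and -5.03 for ATF3. For NTF2-deletion rescue minus knockout they were -4.44 for FOS, -6.26 for FOSB, -2.56 for FOSL1, -0.84 for FOSL2, -3.25 for JUN, -1.65 for JUNB and -5.19 for ATF3.

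For wild-type rescue minus NTF2-deletion rescue, where the difference itself was tested, they were 0.72 for FOS and 0.26 for JUN. With the deposited shrinkage undone FOS fell to 0.33 and in limma it was 0.34. JUN stayed at 0.23 and 0.25, with adjusted p-values of 0.0561 and, by limma, 0.428, so that neither gene passed in either. Groups held 2 or 3 libraries, too few to look for a single library far from the others.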

How the results depend on the processing

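No paired analysis was possible because the deposited tables hold no values per sample and the recovered libraries carry a group but no replicate number. Of the alternatives for counts, 403 were within 1.5 times the reported value and 71 were not; of those for single members 818 kept their call and size, 86 moved, 14 gained a call, 7 lost one and 1 reversed, FOSL2 in NTF2-deletion rescue over knockout (-0.00067 on the log2 scale per 1000000 gene reads). That scaling also changed the sign of JUNB, which was not called, to -0.05 in wild-type and -0.22 in NTF2-deletion rescue over knockout, and took FOSL2 from 0.42 to 0.18 in wild-type rescue. limma, added after seeing the data, called 5845 genes for arsenite in the knockout against 3011 in the authors' deposited table, and 2066 against 992 in NTF2-deletion rescue. Between wild type and G3BP1 rescue 2 members were higher, in limma and after centring, JUN being added. For differences of responses limma called 1692 genes (wild-type rescue minus knockout), 2349 (NTF2-deletion rescue minus knockout) and 3 (between rescues, 0 members; with shrinkage undone 22 genes and 0 members). Between untreated rescues it called 162 genes and 2 members, and a base mean of at least 100 left 1 gene. With arsenite it called 11361 and 11398 genes between the rescues and the knockout, and 171 genes and 5 members between the rescues.

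Leaving out each library in turn, in limma, gave these ranges of called genes. For arsenite they were 4741 to 5331 in the knockout, 1586 to 1853 in wild-type rescue and 1099 to 1490 in NTF2-deletion rescue. For differences of responses they were 984 to 1806 and 1605 to 2412 against the knockout and 0 to 2 between the rescues, with 0 members. Between the rescues they were 29 to 47 untreated, with 1 to 2 members, and 31 to 47 with arsenite, with 2 members. From 1 to 3 members were higher in wild type than in G3BP1 rescue. Fewer libraries enter these fits; the cause was otherwise not tested. Depth limits FOS and FOSB most in the RIP libraries, at 10 to 51 reads each.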
